A study of Homo sapiens with 12 samples.

Results

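The response of FaDu STING KO cells to fractionated radiation was described from 6 of the 12 RNA-Seq libraries of the series, 3 from unirradiated cells and 3 from cells given 4 daily fractions of 2 Gy. Expression was given as TPM, a share of each library's transcripts after correction for gene length. Genes that reached 1 TPM in 3 or more of the 12 libraries were included, which kept 15973 of the 58288 genes listed. FaDu is an established head and neck squamous cell carcinoma line. The STING KO cells carried lentiviral Cas9 with STING gRNA 2 and the STING WT cells Cas9 with a non-targeting gRNA, both after puromycin selection, so the controls share the nuclease and the selection. The KO line is not described as a clone. The labels number 3 samples per group, and nothing in the sources used here says that they came from separate cultures or how many hours passed between the last fraction and RNA collection. The p-values therefore rest on a spread between samples that may be technical. That spread was estimated in a single fit of all 12 libraries, the 6 of STING WT cells among them.

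STING, encoded by the gene listed as TMEM173, is an adaptor of the endoplasmic reticulum that is activated by the cyclic dinucleotide made by cGAS when DNA is present in the cytosol. It recruits the kinase TBK1, which activates IRF3 and, through further signalling, NF-kB, and so turns on interferons and inflammatory genes. Ionizing radiation breaks DNA, and irradiated cells are known to activate p53 where it is functional, to halt at the G2/M checkpoint, to release cytokines and to form micronuclei whose DNA can be sensed by cGAS. The comparison asks which of these transcriptional responses are seen in cells that lack STING.

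TMEM173 was listed at 5.18, 5.29 and 6.96 TPM in the unirradiated and at 6.35, 7.41 and 7.08 TPM in the irradiated STING KO libraries. The 2 groups overlapped, and the log2 fold change was 0.23 (SE 0.11, limma adjusted p = 0.32). Unirradiated STING WT libraries averaged 22.1 ± 1.24 TPM (SD, n = 3), so the transcript was lower but still listed in the KO cells (exact two-sided permutation p = 0.1, the smallest that 3 against 3 allows). The gene for cGAS, listed as MB21D1, stood at 89.4, 86.6 and 83.7 TPM before and 88.2, 90.5 and 82.6 TPM after radiation (limma adjusted p = 0.95), and TBK1 and IRF3 did not pass the threshold either (limma adjusted p = 0.83 and 0.72).

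All 10 epithelial markers were expressed in the STING KO libraries, with a summed level of 10996 to 12616 TPM before and 10642 to 11705 TPM after radiation. Of these, KRT18 and EPCAM rose (log2 fold change 0.49 and 0.18) and SFN fell (-0.28), each past the limma threshold. The 6 fibroblast markers summed to 6.40 to 7.12 TPM before and 7.19 to 7.70 TPM after radiation, almost all of it COL1A1, while DCN and LUM were listed at 0 in all 6 libraries. The 4 endothelial markers summed to 13.0 to 15.9 TPM before and 19.9 to 23.9 TPM after radiation, all but a trace from CDH5 and VWF, while KDR was listed at 0 in all 6. CDH5 rose by a log2 fold change of 0.61 (limma adjusted p = 0.026). The 6 immune markers summed to 18.9 to 28.4 TPM before and 20.6 to 28.1 TPM after radiation, with CD3E listed at 0 in all 6.

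The libraries of the 2 groups also differed as wholes. Before radiation 14860 to 14940 genes reached 1 TPM and after radiation 15079 to 15153, without overlap. Mitochondrially encoded genes held 8.90 to 10.3% of the TPM before and 10.8 to 11.9% after radiation, again without overlap. TPM is a share of a fixed total, and the counts without those genes are given beside the counts with them. The part of the endothelial marker sum and of the mitochondrial share in the other results was not tested beyond that.

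Fractionated radiation changed 590 of the 15973 genes in STING KO cells, 319 upward and 271 downward (limma on log2(TPM + 1), Benjamini-Hochberg adjusted p under 0.05). That is 3.69% of all genes tested, 2.00% higher and 1.70% lower, and 2896 genes had an unadjusted p under 0.05. All 590 genes had irradiated libraries wholly above or below the unirradiated ones, as had 24.3% of the genes tested, and 54.3% of the genes tested had a positive log2 fold change. The median size of the change was 0.52 on the log2 scale among the genes that rose and 0.36 among those that fell. Only 23 genes rose and 9 fell by 2-fold or more on that scale, which understates the change of genes with low TPM. After removal of the mitochondrially encoded genes 425 genes were higher and 231 lower, so the share that was higher moved from 54.1% to 64.8%. The spread behind these calls comes from all 12 libraries, and fitting only the 6 libraries compared gave 195 genes. Leaving out a single STING KO library lowered the count to between 268 (without unirradiated replicate 2) and 364 (without irradiated replicate 1). In each of those 6 leave-one-out fits 193 of the 590 genes passed.

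The genes that changed can be described by class, with no test. Of those with an annotation, 92.1% of the genes that rose and 94.1% of those that fell were protein-coding, against 79.3% of all tested genes. The genes that fell were more abundant, with a median of 48.2 TPM over the 12 libraries against 13.0 TPM for those that rose and 15.6 TPM for all. Gene span was alike, at a median of 24.2 kb for genes that rose, 22.8 kb for genes that fell and 24.7 kb for all.

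The 12 largest increases included secreted factors, cytokine receptors and enzymes. IGFL1, a secreted insulin growth factor-like protein of epithelia (chromosome 19, 46229752 to 46231243), was listed at 74.7, 70.4 and 73.0 TPM before and at 221, 226 and 217 TPM after radiation. All irradiated libraries were above all unirradiated ones, and mean TPM rose 3.04-fold (log2 fold change 1.59, SE 0.056, limma adjusted p = 6.0e-07). ODC1, ornithine decarboxylase, which starts polyamine synthesis (chromosome 2, 10439968 to 10448504), went from 109, 109 and 106 to 266, 246 and 274 TPM. Its libraries did not overlap either, with a 2.43-fold higher mean (log2 fold change 1.27, SE 0.093, limma adjusted p = 0.00011). STC1, stanniocalcin 1, a secreted glycoprotein hormone (chromosome 8, 23841915 to 23854807), went from 1.47, 1.22 and 1.81 to 6.55, 6.72 and 6.79 TPM. This was the largest increase on the log2(TPM + 1) scale, and mean TPM rose 4.46-fold (log2 fold change 1.63, SE 0.10, limma adjusted p = 3.5e-05).

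Several of the other large increases belong to cytokine signalling. LIF, a cytokine of the interleukin-6 family (chromosome 22, 30240447 to 30246851), was listed at 18.1, 17.8 and 18.3 TPM before and 40.4, 44.7 and 43.2 TPM after radiation. The groups did not overlap (log2 fold change 1.2, SE 0.051, limma adjusted p = 2.4e-06). The receptor for interleukin 33, IL1RL1, went from 4.10, 4.19 and 4.54 to 14.7, 10.8 and 18.8 TPM, and the decoy receptor for interleukin 1, IL1R2, from 1.53, 1.99 and 2.12 to 6.94, 5.60 and 5.25 TPM. Both rose without overlap (log2 fold change 1.55 and 1.26, limma adjusted p = 0.00073 and 0.0018). IL1RL1 overlaps IL18R1 on the same strand, so reads could be split between them, and LIF overlaps AC004264.1 on the other strand. CYP24A1, the enzyme that inactivates vitamin D, rose from 11.8, 10.6 and 10.6 to 23.2, 29 and 26.3 TPM (log2 fold change 1.18, limma adjusted p = 0.00018). ASB2, a subunit of a ubiquitin ligase, rose from 1.18, 2.22 and 2.2 to 6.49, 5.85 and 9.47 TPM (log2 fold change 1.53, limma adjusted p = 0.0017). All of these kept their call in each of the 12 leave-one-out fits, in which each library of the series was dropped in turn.

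The 12 largest increases also held the matrix protease MMP10 and the low transcripts ANPEP, AC008412.1, a processed pseudogene, and AL450992.2, an antisense RNA, all at under 5 TPM, where the log2(TPM + 1) scale understates the change. ANPEP, a membrane aminopeptidase, was at most 0.42 TPM before and between 1.08 and 3.5 TPM after radiation. Its call (limma adjusted p = 0.044) was lost in 9 of the 12 leave-one-out fits, with an adjusted p of 0.12 without unirradiated KO replicate 1.

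**Figure D1:**
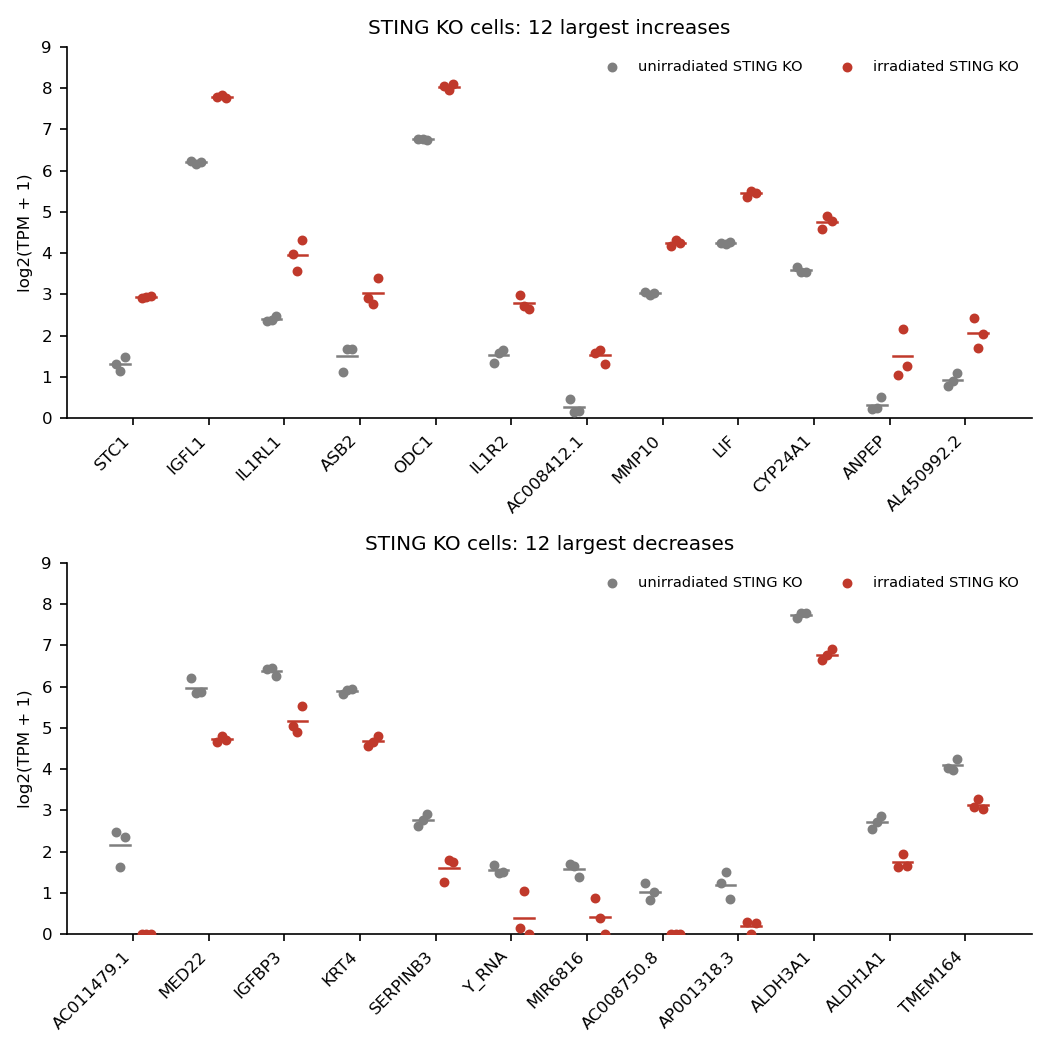
Log2(TPM + 1) of the 12 genes with the largest increase (top) and the largest decrease (bottom) past the threshold in STING KO cells. Each point is a library, grey for unirradiated and red for irradiated, and each line is the mean of 3 libraries. Points of the 2 colours do not overlap for any gene, and AC011479.1 and AC008750.8 are at 0 in all 3 irradiated libraries.

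Genes of the extracellular matrix, its proteases and TGF-beta signalling were among those that rose. Of 39 tested members of this list, 15 rose, none fell, 24 did not pass and 9 had a negative value, and the median log2 fold change was 0.25 against 0.019 over all genes tested. Over all genes tested 2.00% rose, 1.70% fell and 54.3% had a positive value. The interstitial collagenase MMP1 went from 13.7, 12.5 and 11.8 to 23.4, 25.5 and 28.2 TPM, and the stromelysin MMP10 from 7.39, 6.91 and 7.16 to 17.0, 19.0 and 18.0 TPM. Neither overlapped between the groups (log2 fold change 0.97 and 1.22, limma adjusted p = 0.00073 and 3.5e-05). Fibronectin, FN1, went from 6.41, 4.36 and 5.25 to 11.9, 10.6 and 10.3 TPM (log2 fold change 0.92, SE 0.15, limma adjusted p = 0.0086). MMP3 and MMP13 rose from low levels (0.81 and 0.69), as did the neural cadherin CDH2 (0.63). The TGF-beta targets CTGF and CYR61 rose by 0.57 and 0.50 on the log2 scale, the ligand gene TGFB1 by 0.39, the protease inhibitors TIMP2 and TIMP1 by 0.53 and 0.28, and MMP2, the urokinase gene PLAU and THBS1 by 0.44, 0.40 and 0.28, all past the limma threshold. Between 11 and 15 members rose when 1 library was left out, the fewest without unirradiated KO replicate 2. The fibroblast marker COL1A1 was at 6.82, 7.03 and 6.34 TPM before and 6.99, 7.05 and 7.64 TPM after radiation, with overlap, while DCN and LUM were at 0.

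Genes that respond to MAP kinase signalling also moved. Of 29 tested AP-1 and immediate early genes, 9 rose and 2 fell, where 2.00% of all genes tested rose and 1.70% fell. The median log2 fold change of the list was 0.37. Inhibitors that feed back on the pathway were among those that rose. DUSP5, a phosphatase that acts on ERK, went from 20.7, 23.3 and 24.2 to 38.7, 40.0 and 38.9 TPM, without overlap (log2 fold change 0.76, SE 0.080, limma adjusted p = 0.00079). SPRY4, DUSP6, DUSP1 and DUSP4 rose by 0.79, 0.67, 0.46 and 0.42, and the AP-1 subunit FOSL1 by 0.50. The transcription factor EGR3 rose from 4.31, 5.37 and 4.93 to 8.57, 8.61 and 7.83 TPM (0.67, limma adjusted p = 0.0035), and PHLDA1 and KLF6 rose by 0.57 and 0.37. The AP-1 subunits JUNB and FOSL2 fell (-0.38 and -0.27), while FOS was listed at 18.1, 11.8 and 14 TPM before and 14.8, 14.9 and 12 TPM after radiation (limma adjusted p = 0.91). The number of members that rose ranged from 4, without unirradiated KO replicate 2, to 10 when 1 library was left out. The DUSP6 call (limma adjusted p = 0.026) reached an adjusted p of 0.088 without unirradiated KO replicate 1.

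Upstream of this pathway, 3 of 15 tested genes of the EGFR family of ligands and receptors rose, all of them ligands. None fell, where 2.00% of all genes tested rose and 1.70% fell, and the median log2 fold change was 0.081. Epiregulin, EREG, went from 110, 116 and 109 to 152, 159 and 158 TPM. Amphiregulin, AREG, went from 92.6, 88.3 and 91.4 to 120, 127 and 126 TPM. Neither gene's libraries overlapped (log2 fold change 0.48 and 0.45, limma adjusted p = 0.0015 and 0.0014), and HBEGF rose by 0.58 (limma adjusted p = 0.013). EGFR itself was listed at 192, 200 and 198 TPM before and 181, 181 and 180 TPM after radiation, a log2 difference of -0.12 that did not pass (limma adjusted p = 0.21).

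Of 34 tested NF-kB targets and inflammatory cytokines, 7 rose and 1 fell in the cells without STING (2.00% and 1.70% over all genes tested). The median log2 fold change was 0.26. Besides LIF, the neutrophil attractant CXCL8 rose from 17.9, 17.7 and 20.3 to 31.3, 35.7 and 27.6 TPM. Its groups did not overlap, but the call (log2 fold change 0.72, SE 0.14, limma adjusted p = 0.023) was lost in 5 of the 12 leave-one-out fits, with an adjusted p of 0.082 without irradiated KO replicate 2. IL1B, interleukin 1 beta, went from 136, 127 and 137 to 176, 174 and 182 TPM (0.41, limma adjusted p = 0.0048). TNFAIP3 and NFKB2, which restrain or carry NF-kB signalling, rose by 0.54 and 0.31, IER3 by 0.48 and the adhesion molecule ICAM1 by 0.35, and TNFAIP2 fell (-0.43). IL6 was listed at 0.88, 2.38 and 1.46 TPM before and 3.03, 3.19 and 2.97 TPM after radiation. The IL6 groups did not overlap, and its log2 difference of 0.70 missed the threshold (limma adjusted p = 0.060).

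An AP-1 element (TGAGTCA, or its reverse complement TGACTCA) was found in the 250 bases before the RefSeq start of 12 of the 218 genes that rose and had a promoter sequence, 5.5%, against 2.56% of the 10915 tested genes with one. A further 7 of 204 genes that fell held it, 3.43%. Of the 15 matrix and TGF-beta genes that rose, 8 had a promoter sequence and none of those held it. None of the 23 AP-1 and immediate early genes with a promoter sequence held it either. The promoters of CXCL8 and of SPRR1B, a cornified envelope precursor whose rise is given below, are shown because both genes rose and both hold the element, which is in capitals in the 5′ to 3′ sequence of GRCh38.p14 from RefSeq at chr4:73740319-73740568 (+ strand) and chr1:153030953-153031202 (+ strand). Each of the 2 windows holds 1 match, and a match describes the letters only.
CXCL8: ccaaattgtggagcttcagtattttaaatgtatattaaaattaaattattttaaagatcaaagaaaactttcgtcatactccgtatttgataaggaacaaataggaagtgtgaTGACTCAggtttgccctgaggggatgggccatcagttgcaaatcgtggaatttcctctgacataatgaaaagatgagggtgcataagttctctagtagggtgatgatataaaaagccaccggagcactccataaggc
SPRR1B: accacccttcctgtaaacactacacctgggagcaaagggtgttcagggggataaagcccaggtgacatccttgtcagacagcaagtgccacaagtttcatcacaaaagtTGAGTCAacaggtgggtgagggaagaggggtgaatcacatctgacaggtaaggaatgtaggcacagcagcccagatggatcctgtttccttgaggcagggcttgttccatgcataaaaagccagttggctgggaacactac

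**Figure D2:**
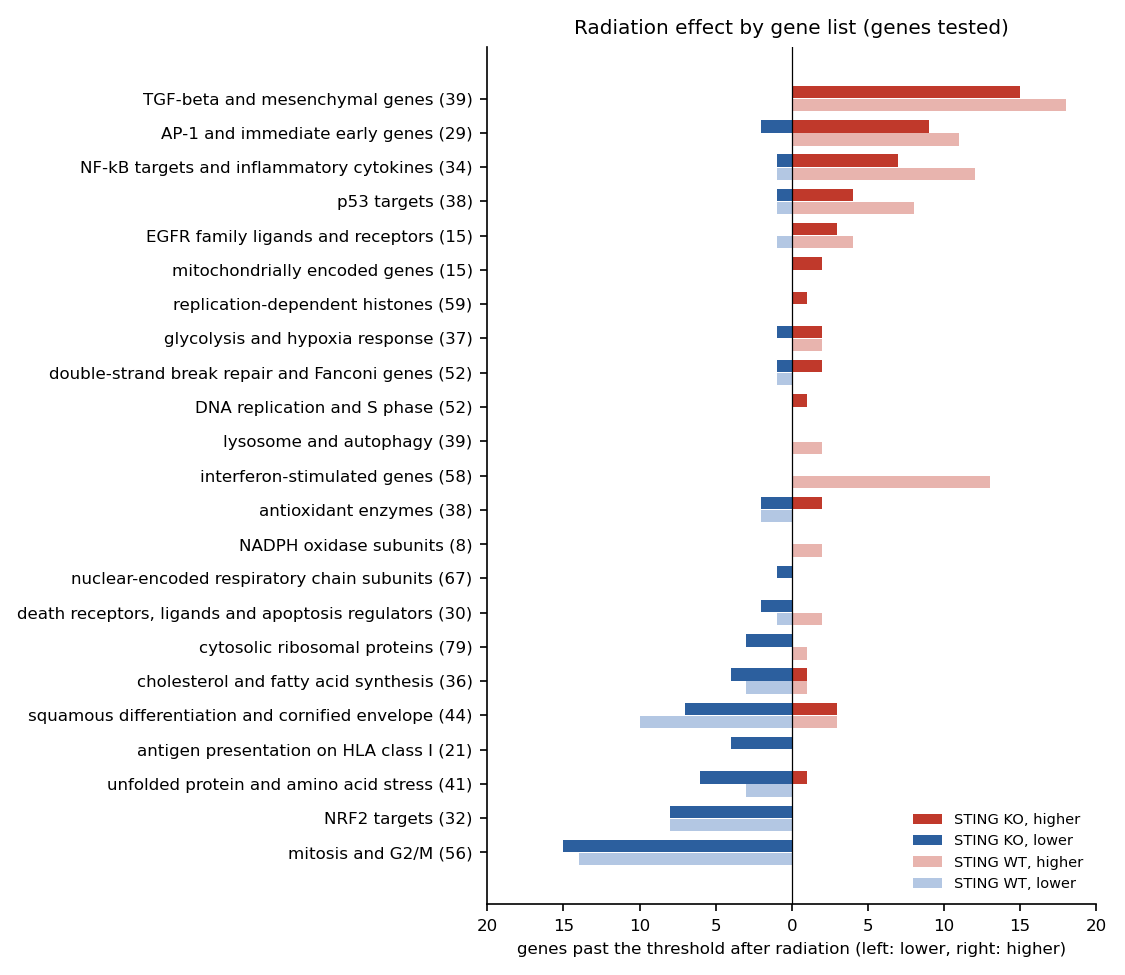
Number of genes of each list past the limma threshold after radiation, lower to the left and higher to the right, in STING KO (dark bars) and STING WT cells (pale bars), with the number of genes tested in parentheses. In STING KO cells the longest bars are the 15 matrix and TGF-beta genes that rose and the 15 mitosis genes that fell, and the interferon-stimulated genes have no dark bar.

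Genes of mitosis were among those that fell. Of 56 tested genes of mitosis and G2/M, 15 fell and none rose, the median log2 fold change was -0.16, and 46 of the 56 had a negative value. Over all genes tested 1.70% fell, 2.00% rose and 54.3% had a positive value. DLGAP5, a spindle protein stabilizing microtubules near chromatin (chromosome 14, 55148112 to 55191678), went from 212, 226 and 255 to 151, 150 and 153 TPM. The kinesin of cytokinesis KIF20A went from 154, 143 and 146 to 102, 96.6 and 99.3 TPM, and CDC20, the activator of the anaphase-promoting complex, from 408, 385 and 388 to 302, 291 and 278 TPM. None of these overlapped between the groups (log2 fold change -0.60, -0.56 and -0.44, limma adjusted p = 0.00081, 0.00019 and 0.00062), and all 3 calls held in each fit that left out a library. CDC25C, the phosphatase that starts mitosis by activating CDK1, fell from 30.8, 32.5 and 27.5 to 22.3, 21.3 and 19.4 TPM (-0.51, limma adjusted p = 0.021, and 0.079 without unirradiated KO replicate 2). KIF20A overlaps BRD8 and CDC23, and CDC25C overlaps FAM53C, on the other strand.

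The other 11 genes that fell changed by less. CCNB1, CCNB2 and CCNA2, the mitotic cyclins, changed by -0.25, -0.22 and -0.21, and the checkpoint kinase BUB1B by -0.24. The CCNB1 call (limma adjusted p = 0.021) reached 0.072 without unirradiated KO replicate 2. The centromere proteins CENPE and CENPF changed by -0.31 and -0.22, the cohesin protector SGO2 by -0.36, and KIF14, CKS2, GTSE1 and TPX2 by -0.29, -0.27, -0.23 and -0.19. TOP2A, topoisomerase II alpha, did not pass, at 281, 287 and 280 TPM before and 298, 302 and 295 TPM after radiation (limma adjusted p = 0.25). The proliferation marker MKI67 was listed at 165, 174 and 162 TPM before and at 149, 148 and 72.1 TPM after radiation, where irradiated replicate 3 was far below the others (limma adjusted p = 0.25). The number of mitotic genes that fell was 5 without unirradiated KO replicate 2 and up to 14 when another library was left out.

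Promoter sequence was shared by many genes of the mitosis list, which includes those that did not fall. A CHR element (TTTGAA or TTCGAA, either strand), bound by the complexes that repress or activate late cell cycle genes, was found in 27 of 49 mitosis genes with a promoter sequence (55.1%), against 9.39% of all 10915. A CCAAT box, the site of NF-Y, was in 37 of the 49 (75.5%) against 35.4%. Both were in 23 of them (46.9%) against 4.0%. Among the 14 that fell and had a sequence, 6 held a CHR (42.9%), 10 held a CCAAT box (71.4%) and 5 held both (35.7%). Each of these shares is below that of the whole list. The promoters of DLGAP5, CCNB2 and CDC20 are shown because all 3 genes fell and hold both, with CHR and CCAAT matches in capitals and the 250 bases before the RefSeq start written 5′ to 3′ from GRCh38.p14 at chr14:55191586-55191835 (- strand), chr15:59104896-59105145 (+ strand) and chr1:43358731-43358980 (+ strand). DLGAP5 holds 2 CHR and 2 CCAAT matches, CCNB2 holds 1 and 4, and CDC20 holds 2 and 2.
DLGAP5: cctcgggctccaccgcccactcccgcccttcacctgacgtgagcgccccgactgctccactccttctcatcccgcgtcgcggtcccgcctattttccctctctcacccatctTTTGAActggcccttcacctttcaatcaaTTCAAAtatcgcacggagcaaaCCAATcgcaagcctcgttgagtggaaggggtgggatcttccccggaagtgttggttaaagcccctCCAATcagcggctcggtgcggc
CCNB2: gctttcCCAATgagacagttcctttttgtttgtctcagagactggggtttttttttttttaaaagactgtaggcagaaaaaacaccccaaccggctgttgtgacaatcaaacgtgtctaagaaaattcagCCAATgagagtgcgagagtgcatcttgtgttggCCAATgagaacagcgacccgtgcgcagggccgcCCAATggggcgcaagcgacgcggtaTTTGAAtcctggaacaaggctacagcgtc
CDC20: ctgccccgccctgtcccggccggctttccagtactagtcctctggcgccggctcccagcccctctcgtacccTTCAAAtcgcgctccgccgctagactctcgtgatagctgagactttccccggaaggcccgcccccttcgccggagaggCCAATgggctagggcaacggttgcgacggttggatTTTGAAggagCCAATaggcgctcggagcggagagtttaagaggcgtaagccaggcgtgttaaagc

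**Figure D3:**
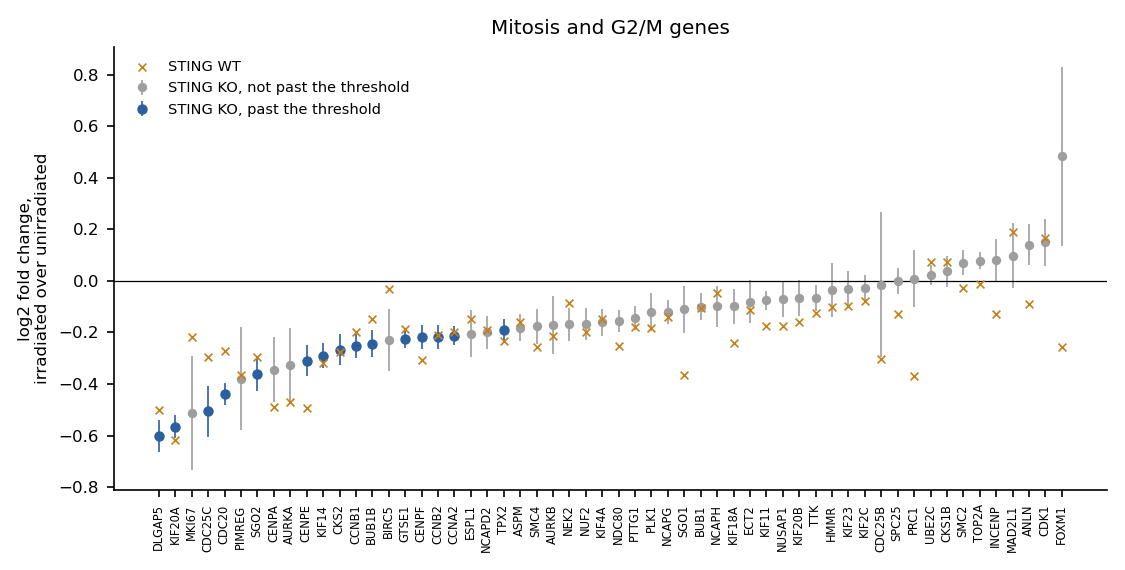
Log2 fold change after radiation of the 56 tested mitosis and G2/M genes in STING KO cells, ordered by value, with the standard error as bars. The 15 genes past the threshold are blue, the others grey, and the crosses are the values in STING WT cells, which are also mostly below 0.

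Of 52 tested replication and S phase genes, 1 rose and none fell (median log2 fold change 0.010), where 2.00% of all genes tested rose and 1.70% fell. CLSPN, the claspin adaptor of the CHK1 checkpoint, rose from 34.6, 39.4 and 37.3 to 44.7, 45.7 and 46.8 TPM (0.30, limma adjusted p = 0.036, and 0.11 without unirradiated KO replicate 1). PCNA was listed at 355, 365 and 366 TPM before and 352, 347 and 339 TPM after radiation (limma adjusted p = 0.70). Of 59 tested replication-dependent histone genes, 1 rose (HIST1H2BD, 0.31) and none fell, a share near that of all genes, with a median of -0.0076. The HIST1H2BD call (limma adjusted p = 0.042) was lost in 10 of the 12 leave-one-out fits, reaching 0.13 without unirradiated KO replicate 1. Histone mRNA of this class is not polyadenylated as a rule, and poly(A) selection limits what these values measure.

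Of 38 tested p53 targets, 4 rose and 1 fell (2.00% and 1.70% over all genes tested), and the median log2 fold change was 0.11. CDKN1A, the cyclin-dependent kinase inhibitor p21, went from 16.3, 15.7 and 15.4 to 27.6, 23.4 and 22.6 TPM, without overlap (0.60, SE 0.093, limma adjusted p = 0.0068). PLK3, TP53I3 and TIGAR rose by 0.88, 0.58 and 0.31, and PHLDA3 fell (-0.29). The PLK3, TP53I3 and TIGAR calls were lost in 4, 10 and 4 of the 12 leave-one-out fits, with a limma adjusted p of up to 0.079 (without unirradiated KO replicate 2), 0.13 (without irradiated KO replicate 2) and 0.082 (without unirradiated KO replicate 3), and only 1 p53 target rose without irradiated KO replicate 1 or without irradiated KO replicate 3. TP53I3 overlaps FAM228B on the other strand. GDF15, another p53 target, was at 22.4, 23.2 and 23.5 TPM before and 26.6, 27.1 and 21.7 TPM after radiation (limma adjusted p = 0.53). MDM2 was at 52.6, 48.5 and 56.1 TPM before and 25.9, 62.2 and 61.2 TPM after radiation, where irradiated replicate 1 stood apart (limma adjusted p = 0.79).

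Of 52 tested genes of double-strand break repair and the Fanconi pathway, 2 rose and 1 fell, with a median of 0.050. Over all genes tested 2.00% rose and 1.70% fell, so these counts are near the general share. MRE11, the nuclease subunit of the break-sensing MRN complex (chromosome 11, 94415578 to 94493908), went from 16.8, 16.2 and 18.7 to 22.0, 25.9 and 25.6 TPM, without overlap (0.48, SE 0.085, limma adjusted p = 0.014, and 0.059 without unirradiated KO replicate 2). MRE11 overlaps ANKRD49 on the other strand and AP000786.1 on its own, and the strand setting is not given in the sources used here. LIG4, the ligase of end joining, rose from 14.4, 15.1 and 14.3 to 17.6, 18.2 and 21.2 TPM (0.36, limma adjusted p = 0.028, and 0.094 without unirradiated KO replicate 3). H2AFX, the histone H2A variant that is phosphorylated at breaks, fell from 231, 208 and 219 to 185, 185 and 160 TPM (-0.31, limma adjusted p = 0.027, and 0.090 without unirradiated KO replicate 1).

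Squamous differentiation genes moved in both directions. Of 44 tested genes of differentiation and the cornified envelope, 7 fell and 3 rose (1.70% and 2.00% over all genes tested). The median log2 fold change was -0.14. The mucosal keratin KRT4 (chromosome 12, 52806549 to 52814551) went from 55.3, 59.5 and 60.7 to 22.6, 24.4 and 27.1 TPM, and the protease inhibitor SERPINB13 from 56.9, 61.0 and 56.3 to 32.1, 29.2 and 30.6 TPM. Neither overlapped between the groups (log2 fold change -1.21 and -0.90, limma adjusted p = 0.00034 and 0.00017). The squamous cell carcinoma antigen SERPINB3 went from 5.14, 5.83 and 6.48 to 1.39, 2.51 and 2.35 TPM (-1.16, limma adjusted p = 0.0049). The crosslinking enzyme TGM1, the epithelial transcription factor ELF3, LY6D and the desmosomal cadherin DSG3 fell as well (-0.83, -0.74, -0.63 and -0.38). SPRR1B rose from 6.20, 7.69 and 7.23 to 13.3, 14.9 and 15.5 TPM, without overlap (0.95, limma adjusted p = 0.0063). The stress keratin KRT16 and the repressor OVOL1 rose too (0.85 and 0.41), while KRT13 was at 23.9, 35.3 and 29.8 TPM before and 31.1, 21.5 and 38.1 TPM after radiation (limma adjusted p = 0.99). SERPINB3 has a near-identical neighbour, SERPINB4, and reads may be split between them.

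ALDH3A1, ALDH1A1 and some NRF2 targets fell. ALDH3A1 (chromosome 17, 19737984 to 19748943) went from 201, 220 and 221 to 99.4, 109 and 119 TPM, and ALDH1A1 from 4.89, 5.64 and 6.23 to 2.10, 2.87 and 2.16 TPM. Neither overlapped between the groups (log2 fold change -0.97 for both, limma adjusted p = 0.00055 and 0.0017). Of 32 tested targets of NRF2, the regulator of antioxidant defence, 8 fell and none rose (1.70% and 2.00% over all genes tested). The median was -0.18. Those that fell included ALDH3A1, the aldo-keto reductase AKR1B10 (-0.86), the cystine transporter SLC7A11 (-0.47), the glutathione conjugate exporter ABCC1 (-0.34), PIR (-0.28), and the metabolic enzymes TKT and ME1 (-0.25 and -0.19). SLC7A11 was at 21.9, 22.2 and 22.5 TPM before and 14.4, 16.5 and 16.3 TPM after radiation (limma adjusted p = 0.0037). The number that fell was 3 without irradiated KO replicate 1, and the ABCC1 call (limma adjusted p = 0.026) reached 0.088 without unirradiated KO replicate 1. The targets NQO1 and HMOX1 did not pass (limma adjusted p = 0.27 and 0.11), and HMOX1 stood higher after radiation, at 13.5, 12.2 and 12.8 TPM before and 17.2, 15.4 and 15.0 TPM after.

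Antioxidant enzymes as a wider list did not move in 1 direction. Of 38 tested, 2 rose and 2 fell (2.00% and 1.70% over all genes tested), with a median of -0.039. Catalase, CAT, fell from 55.5, 59.9 and 61.0 to 42.4, 45.9 and 48.1 TPM (-0.36, limma adjusted p = 0.011, and 0.051 without unirradiated KO replicate 3). GPX4, the peroxidase that reduces lipid peroxides, fell slightly from 239, 238 and 248 to 218, 215 and 204 TPM (-0.19, limma adjusted p = 0.033, and 0.12 without unirradiated KO replicate 3). The secreted peroxidase GPX3 rose from 5.38, 6.01 and 9.95 to 14.1, 13.1 and 13.0 TPM (0.87, limma adjusted p = 0.026, and 0.090 without unirradiated KO replicate 2), and the glutaredoxin GLRX2 rose by 0.54 (limma adjusted p = 0.039, and 0.13 without unirradiated KO replicate 3). GPX1 ranged from 54.1 to 155 TPM within the irradiated group and from 64.2 to 144 TPM within the unirradiated group, so the groups overlapped. None of the 8 tested NADPH oxidase subunits passed the threshold in limma, 3 had an unadjusted p under 0.05, and 4 of them did not overlap between the groups, where the shares over all genes were 3.69%, 18.1% and 24.3%. The dual oxidase DUOX2 was under the filter at 0.037, 0.074 and 0.027 TPM before and 0.14, 0.59 and 0.080 TPM after radiation.

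Genes of amino acid stress and lipid synthesis were among those that fell. Of 41 tested genes of the unfolded protein and amino acid stress responses, 6 fell and 1 rose, with a median of 0.0061. Over all genes tested 1.70% fell and 2.00% rose. DDIT4, an inhibitor of mTORC1, went from 282, 273 and 302 to 183, 181 and 174 TPM, without overlap (-0.67, SE 0.060, limma adjusted p = 0.00035). The amino acid transporter SLC7A5, the transcription factors CEBPB and ATF4 and the serine synthesis enzyme PSAT1 fell by less (-0.31, -0.31, -0.25 and -0.25). DDIT3, the ATF4 target CHOP, rose from 7.75, 8.48 and 6.77 to 13.1, 10.8 and 10.3 TPM (0.51, limma adjusted p = 0.022, and 0.079 without unirradiated KO replicate 3). It overlaps MARS and MBD6 on the other strand. Of 36 tested genes of cholesterol and fatty acid synthesis, 4 fell and 1 rose, with a median of -0.098. A negative value was found for 29 of the 36, where 54.3% of all genes tested had a positive one. The number that fell was 2 without irradiated KO replicate 2 or without unirradiated KO replicate 1. The regulators SREBF1 and SREBF2 fell (-0.36 and -0.18), as did the desaturase SCD (-0.24), and the desaturase FADS2 rose (0.32). The FADS2 call reached a limma adjusted p of 0.081 without unirradiated KO replicate 2, and FADS2 overlaps FEN1 and FADS1. SREBF1 was at 197, 183 and 189 TPM before and 148, 151 and 143 TPM after radiation (limma adjusted p = 0.0032).

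Interferon-stimulated genes, which act against viruses and modify signalling and antigen presentation, did not pass in cells without STING. None of the 58 tested genes of this list passed the threshold in STING KO cells (limma), against 3.69% of all genes. An unadjusted p under 0.05 was found for 5 with a higher and 7 with a lower value, where 18.1% of all genes had one. The KO libraries did not overlap between groups for 24 of the 58, against 24.3% of all genes, and the median log2 fold change was -0.057. In STING WT cells 13 of the 58 rose and none fell, with a median of 0.28, where 2.24% of all genes rose and 1.50% fell. In WT cells 49 of the 58 had a positive log2 fold change, against 54.0% of all genes. The WT libraries did not overlap between groups for 24.8% of all genes. The smallest adjusted p in STING KO cells was 0.051, for IFI27, whose mean went from 8.88 to 19.6 TPM (log2 difference 1.05). The radiation effect was below that of WT cells for 52 of the 58 genes, and for 28 of them the interaction had an unadjusted p under 0.05, against 6.61% of all genes in either direction. The log2(TPM + 1) scale understates the effect where a gene is low in KO cells only. HERC5 rose 1.47-fold in KO cells, from a mean of 1.12 to 1.65 TPM, which that scale gives as 0.32. In WT cells, with a mean of 117 TPM after radiation, its value was 0.61. IFIT1 and ISG15, given below, were well above such levels in KO cells. The part of this scale in the 52 was not tested. None of the 58 interactions passed in limma after adjustment, where the smallest adjusted p was 0.14.

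IFIT1, an interferon-induced protein that binds foreign RNA (chromosome 10, 89392546 to 89406486), carried that smallest value and overlaps LIPA on the other strand. It was listed at 18.8, 19.9 and 19.4 TPM in unirradiated and 15.3, 15.1 and 13.6 TPM in irradiated STING KO libraries, lower in all 3 after radiation without passing the threshold (log2 difference -0.38, limma adjusted p = 0.075). It did pass under 3 alternatives, with a limma adjusted p of 0.049 with median-of-ratios factors, 0.043 with the replicate block and 0.035 without unirradiated WT replicate 3. In STING WT libraries it went from 105 ± 14.7 to 162 ± 15.8 TPM (SD, n = 3 each) and rose by 0.63 on the log2 scale (limma adjusted p = 0.0095). The antiviral synthetase-like gene OASL was at 1.06, 1.10 and 1.01 TPM before and 0.975, 0.992 and 0.585 TPM after radiation in KO cells, where WT cells averaged 147 and 217 TPM. ISG15, a ubiquitin-like modifier, was at 68.9, 64.7 and 68.2 TPM before and 71.9, 68.6 and 62.9 TPM after radiation in KO cells. Without 1 library, at most 1 gene of the list passed in either direction in KO cells, and 2 genes passed with a lower value with median-of-ratios factors.

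An interferon-stimulated response element (ISRE, 2 GAAA repeats with 2 bases between them, on either strand, where overlapping matches are counted separately) was found in the 250 bases before the RefSeq start of 24 of the 46 list genes with a sequence (52.2%), against 2.27% of all 10915. The promoters of IFIT1 and ISG15 are shown because their radiation effects had the lowest and the third lowest interaction p of the list. ISRE matches are in capitals in the sequence written 5′ to 3′ from GRCh38.p14 at chr10:89392373-89392622 (+ strand) and chr1:1013247-1013496 (+ strand), 2 matches in each.
IFIT1: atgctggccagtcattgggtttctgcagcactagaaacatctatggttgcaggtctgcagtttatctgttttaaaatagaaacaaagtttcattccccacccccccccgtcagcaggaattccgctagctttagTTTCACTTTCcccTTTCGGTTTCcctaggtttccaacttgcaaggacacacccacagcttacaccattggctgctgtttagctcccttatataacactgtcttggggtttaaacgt
ISG15: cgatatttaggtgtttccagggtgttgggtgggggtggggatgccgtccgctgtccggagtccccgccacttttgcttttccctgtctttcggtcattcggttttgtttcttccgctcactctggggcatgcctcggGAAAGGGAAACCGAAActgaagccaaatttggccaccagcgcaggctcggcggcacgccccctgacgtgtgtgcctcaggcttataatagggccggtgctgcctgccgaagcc

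**Figure D4:**
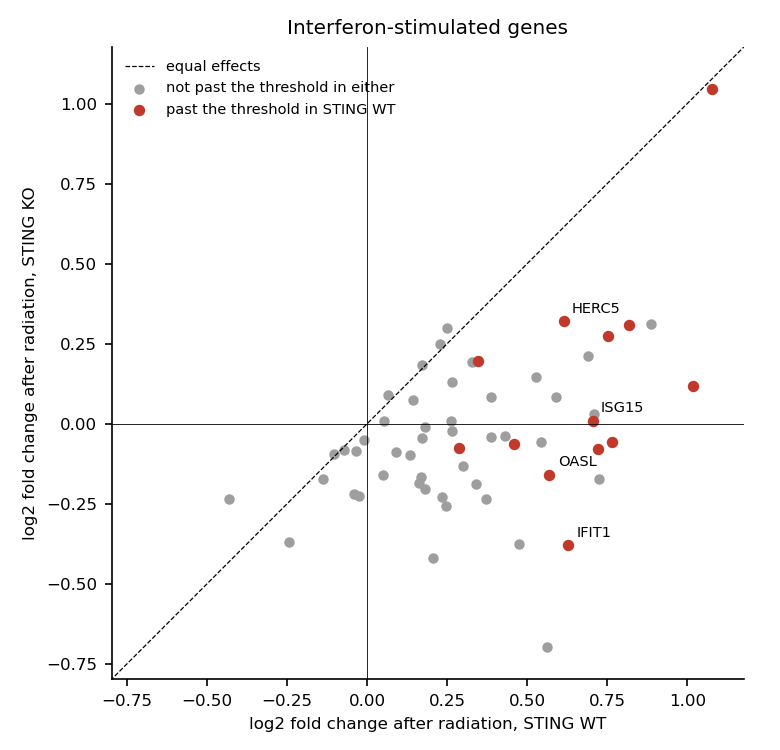
Log2 fold change after radiation of the 58 tested interferon-stimulated genes in STING WT (horizontal) and STING KO cells (vertical). Red points are the 13 genes past the threshold in STING WT cells, grey points passed in neither, and 52 of the 58 points lie below the dashed line of equal effects.

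Genes of antigen presentation on HLA class I, many of which are also induced by interferon, fell in small part. Of 21 tested, 4 fell and none rose in STING KO cells (1.70% and 2.00% over all genes tested), with a median of -0.063. None passed in STING WT cells, where the median was -0.0084, and no interaction of the list passed in limma. The immunoproteasome subunits PSMB10 and PSMB9 fell from 28.6, 30.8 and 33.4 to 23.3, 22.8 and 21.5 TPM and from 24.5, 26.9 and 28.3 to 21.6, 21 and 18.3 TPM. Neither overlapped between the groups (-0.44 and -0.37, limma adjusted p = 0.032 and 0.031). The peptide-editing protein TAPBPL and the trimming peptidase ERAP1 fell by similar amounts (-0.37 and -0.34). All 4 calls were lost in some fits that left out a library, with adjusted p of up to 0.11 for PSMB10, PSMB9 and ERAP1 without unirradiated KO replicate 3 and 0.13 for TAPBPL without unirradiated KO replicate 2, and no member passed without irradiated KO replicate 2. PSMB9 overlaps PSMB8 and TAP1 on the other strand. In WT cells the log2 fold change was -0.24 for PSMB10, -0.13 for PSMB9, -0.26 for ERAP1 and 0.031 for TAPBPL.

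All 15 mitochondrially encoded genes of the list had a positive value after radiation, where 54.3% of all genes tested did. The median log2 fold change was 0.21, and 2 of the 15 passed (none without unirradiated KO replicate 1). These were the complex I subunits MT-ND6 (0.53, limma adjusted p = 0.019, and 0.072 without unirradiated KO replicate 3) and MT-ND2 (0.29, limma adjusted p = 0.050, and 0.14 without irradiated KO replicate 3). Of 67 tested nuclear-encoded subunits of the respiratory chain, 1 fell (UQCRC1, -0.18) and none rose, with a median of -0.022, and the UQCRC1 call (limma adjusted p = 0.049) was lost in all 12 leave-one-out fits. Of 79 cytosolic ribosomal protein genes, 3 fell (RPL10A by -0.20 and RPS18 by -0.16 among them) and none rose, where 1.70% of all genes fell and 2.00% rose, with a median of -0.086. The RPL10A and RPS18 calls reached a limma adjusted p of 0.068 and 0.13 without unirradiated KO replicate 3. None of 39 lysosome and autophagy genes passed in limma (median 0.074), and 9 had an unadjusted p under 0.05, where 18.1% of all genes had one. Of 37 tested glycolysis and hypoxia genes 2 rose and 1 fell (LOX 0.46 and P4HA1 -0.30 among them), and the LOX and P4HA1 calls reached a limma adjusted p of 0.10 without unirradiated KO replicate 2 and 0.058 without unirradiated KO replicate 3. BNIP3, a mitophagy receptor, rose from 6.66, 7.15 and 7.61 to 10.9, 11.5 and 12.5 TPM (0.63, limma adjusted p = 0.0094). Of 30 tested death receptor, ligand and apoptosis genes, 2 fell, the death ligand TNFSF10 (TRAIL) from 27.7, 34.1 and 39.4 to 18.8, 19.9 and 23.1 TPM and the effector BAK1 from 68.1, 64.8 and 64.9 to 59.1, 54.5 and 52.3 TPM (-0.68 and -0.25, limma adjusted p = 0.026 and 0.025). Those calls reached a limma adjusted p of 0.088 without unirradiated KO replicate 3 and 0.084 without unirradiated KO replicate 1.

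The remaining large decreases fell outside these groups. IGFBP3, a binding protein for insulin-like growth factors, went from 85.1, 86.8 and 75.0 to 32.1, 29 and 45.2 TPM, without overlap (-1.21, SE 0.23, limma adjusted p = 0.021, and 0.074 without irradiated KO replicate 2). MED22, a subunit of the Mediator complex, went from 72.9, 57.0 and 57.1 to 24.4, 26.8 and 25.2 TPM (-1.25, limma adjusted p = 0.022, and 0.077 without unirradiated KO replicate 1). In WT cells MED22 was at 58.4, 56.3 and 26.1 TPM before and 54.5, 58.3 and 57.1 TPM after radiation (0.35, limma adjusted p = 0.51). Unirradiated WT replicate 3 thus stood at the level of the irradiated KO libraries. TMEM164 went from 15.4, 14.8 and 18.1 to 7.52, 8.66 and 7.26 TPM (-0.95, limma adjusted p = 0.026, and 0.095 without unirradiated KO replicate 3). In WT cells TMEM164 was at 6.35, 8.72 and 13.4 TPM before and 14.1, 13.6 and 15.0 TPM after radiation (0.60, limma adjusted p = 0.14). Low values of both genes thus also occurred without radiation. AC011479.1, which overlaps C19orf33 and SPINT2 on its own strand, was listed at 4.54, 2.10 and 4.09 TPM before and at 0 in all 3 libraries after radiation (limma adjusted p = 0.0012). AC008750.8, which overlaps ETFB and CLDND2, was listed at 1.37, 0.77 and 1.02 TPM before and at 0 after (limma adjusted p = 0.048, and 0.14 without unirradiated KO replicate 1). The small RNA genes Y_RNA and MIR6816 and the gene AP001318.3 completed the 12, from at most 2.27 TPM before radiation, each inside or opposite a longer gene, and all 3 calls were lost in 5 or more leave-one-out fits. How reads in such overlaps were assigned is not given in the sources used here.

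Some genes were too variable between replicates for radiation to be judged. MYC was listed at 6.39, 114 and 5.22 TPM in the unirradiated and at 92.7, 7.83 and 7.48 TPM in the irradiated STING KO libraries, so both groups held low and high values. LAMP1 was at 382, 383 and 383 TPM before and 267, 387 and 269 TPM after radiation (limma adjusted p = 0.38).

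Most genes that changed in STING KO cells had the same sign in cells that have STING. The STING WT comparison uses 6 other libraries and had 597 genes past the threshold (3.74%), 357 higher and 240 lower. Both comparisons take the spread of each gene from the same fit of 12 libraries, so their sets of calls are not independent. Of the 590 genes that changed in STING KO cells, 560 (94.9%) had the same sign in WT cells, against 64.3% of all genes tested. Past the threshold in both were 319 genes, which is 54.1% of those called in KO and 53.4% of those called in WT cells. Of these, 315 moved in the same direction. As a description over genes, which are no independent replicates, the log2 fold changes in the 2 lines had a Pearson correlation of 0.85 over the 590 genes and 0.31 over all tested genes. IGFL1 rose by 1.34 and LIF by 1.19 in WT cells, DLGAP5 fell by 0.50 and KRT4 by 1.42 (limma adjusted p = 2.5e-06, 2.5e-06, 0.0022 and 9.7e-05).

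The difference between the radiation effects was past the threshold for 3 of 15973 genes (0.0188%), MPP7, MRE11 and AHNAK, with 1056 at an unadjusted p under 0.05. MPP7, a polarity scaffold of epithelial junctions (chromosome 10, 28050993 to 28334486), went from 8.57, 8.26 and 8.64 to 15.3, 16 and 15.9 TPM in KO cells (log2 fold change 0.82, SE 0.059, limma adjusted p = 0.00011). In WT cells it went the other way, from 17.7 ± 0.826 to 13.2 ± 0.668 TPM (SD, n = 3 each; -0.39, limma adjusted p = 0.0062). The effects differed by 1.21 on the log2 scale (SE 0.083, limma adjusted p = 0.00055), and this call held in each fit that left out a library.

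MRE11, which rose in KO cells, fell in WT cells from 25.9 ± 2.16 to 17.7 ± 0.766 TPM (SD, n = 3 each; -0.52, limma adjusted p = 0.0089). Its effects differed by 1.01 (limma adjusted p = 0.035), and the call was lost in 9 of the 12 leave-one-out fits, with an adjusted p of up to 0.13 without unirradiated KO replicate 2. AHNAK, a large scaffold protein of the cell cortex, stood at 298, 296 and 270 TPM before and 251, 257 and 253 TPM after radiation in KO cells, without passing (-0.18, limma adjusted p = 0.17). In WT cells it fell from 274 ± 24.3 to 132 ± 5.05 TPM (SD, n = 3 each; -1.05, limma adjusted p = 2.5e-05). Its effects differed by 0.87 (limma adjusted p = 0.018), and the call was lost in 6 of the 12 fits, with an adjusted p of up to 0.099 without irradiated KO replicate 2. Besides MPP7 and MRE11, RIT1 and AC008750.8 passed in both lines in opposite directions, and their interactions did not pass (limma adjusted p = 0.19 and 0.27). RIT1 was named after its values were seen.

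**Figure D5:**
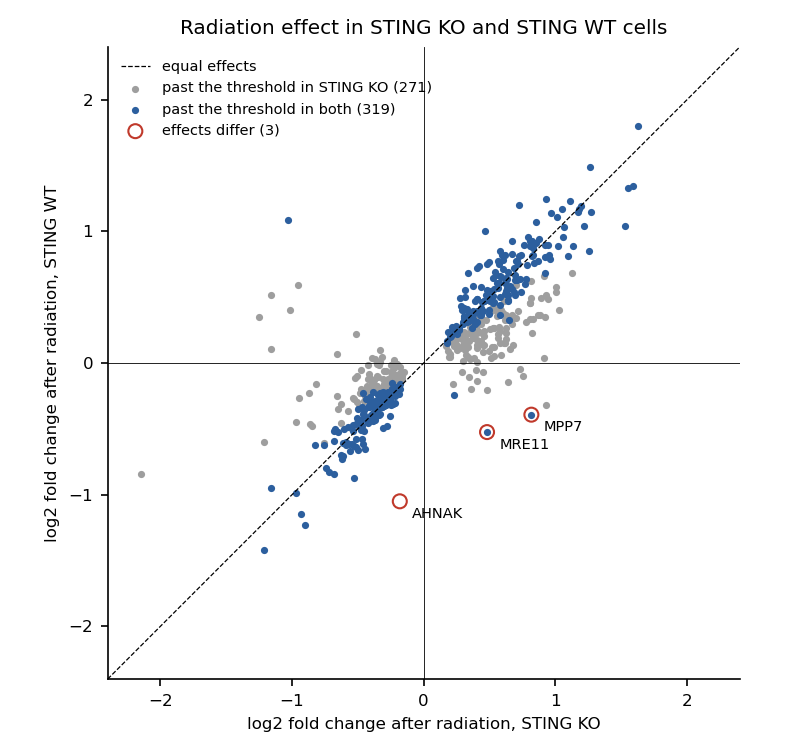
Log2 fold change after radiation in STING KO (horizontal) and STING WT cells (vertical) for the 590 genes past the threshold in STING KO cells and AHNAK. Blue points (319) passed in both, grey points (271) passed in STING KO cells, and red circles mark the 3 genes whose effects differed. Most points lie near the dashed line of equal effects.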

How the data were processed

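Polyadenylated RNA of FaDu cells was sequenced as paired ends in 12 libraries, 3 per group. The authors deposited a single table of TPM per gene with no scaling between libraries. The submitters' processing notes name HISAT2, StringTie, DESeq2 and hg38, with no version or role, and the strand setting and annotation are not given in the sources used here. TPM keeps no read depth, so precision rests on the spread between libraries. Table columns carry other names than the labels. Those of STING WT cells name the non-targeting gRNA given in the study's methods. These and the STING KO columns were assigned to samples by equality with the study's relative expression table.

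Genes reaching 1 TPM in 3 or more libraries were kept. A linear model of log2(TPM + 1) with 4 group means was estimated by limma 3.58.1 under R 4.3.3, using eBayes with a trend and 8 residual degrees of freedom. Benjamini-Hochberg adjustment ran over all genes kept, with a threshold of 0.05. The code was tested on simulated data with 200 changed genes, of which 152 were called, along with 15 unchanged genes. Of the genes changed by 0.5 on the log2 scale 48.5% were called, against 82.1% of those changed by 1. DESeq2 needs counts and was not run. The 23 gene lists were compiled from general knowledge, and lists, members and alternatives were chosen with earlier results of these data known, so no list was tested. Text names TMEM173, the 12 largest changes in each direction without overlap, up to 4 members of each list past the threshold or otherwise the 2 most abundant, genes past the threshold for the interaction and a fixed list of key genes. Other list members, given with their fold change, were named after their values were seen. Gene positions are from GENCODE 29 on GRCh38 (58025 of 58288 identifiers matched, 55619 with the version number). Promoters are from RefSeq on GRCh38.p14 and matched 10915 tested genes by symbol.

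Alternatives were another pseudocount (0.1), no filter or a mean of 5 TPM, scaling by median-of-ratios factors or by quantiles, no eBayes trend, only the 6 libraries compared, the replicate number as a block, each library left out, and removal of mitochondrially encoded genes. The sources used here do not say whether replicate numbers pair the samples. The correlation of deviations from the group mean lay between -0.0602 and 0.0641 for same-numbered libraries and between -0.0698 and 0.0566 for the others. No pairing was seen in these values, which with 3 libraries per group cannot exclude it. Some genes that the naming rule covers are not reported here.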

Additional observations from a re-analysis of the deposited data

Results flagged for a closer look

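The radiation effect differed between STING KO and STING WT cells, by limma's test of the interaction, for 3 genes. The difference on the log2 scale (KO minus WT) was 1.21 for MPP7, which rose in KO and fell in WT cells, 1.01 for MRE11, which did the same, and 0.87 for AHNAK, which fell in WT cells. No explanation was tested.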

How the results depend on the processing

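The number of genes past the threshold in STING KO cells, 590 in the main fit, moved most with the number of libraries behind the estimate of spread. Fitting only the 6 libraries compared gave 195 genes in KO and 166 in WT cells, and the replicate block gave 359 and 315 and 1 gene for the interaction (MPP7). Leaving out each library gave 268 to 553 genes in KO, 242 to 526 in WT cells and 1 to 9 for the interaction. The interaction also held 1 gene without the trend and 7 without a filter on low values. The other alternatives gave 405 to 656 genes in KO cells. The share that was higher moved from 54.1% to 64.8% without the mitochondrially encoded genes, and to 45.2% with median-of-ratios factors. Under the block the interactions of MRE11 and AHNAK had a limma adjusted p of 0.195 and 0.090. Whether replicate numbers pair the samples is not known, so calls gained or lost under the block are given without a reading. Of 84 named genes past the threshold in KO cells, 42 passed without each library and 34 under every alternative, and none of the 84 changed sign under these alternatives. Of the named genes not past the threshold, 11 changed sign under at least 1 alternative, among them MYC, MDM2, GPX1, ISG15 and FOS. The depth behind the TPM values is unknown.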
